A study of Mus musculus with 12 samples.

Results

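The response of mouse macrophages to a 10-fold increase in interferon gamma (IFNγ), from 0.2 to 2 U/ml, was read from RNA sequencing of bone-marrow-derived macrophages of the strain C57BL6. The marrow cells were differentiated for 10 days with L-929 cell supernatant, which supplies CSF-1, and with interleukin-3 at 1 ng/ml at the start. They then spent 8 h in fresh medium, either untreated or with IFNγ at 0.2, 2 or 20 U/ml, the last dose being labelled 20 U without a volume. All 4 groups thus share strain, culture and timing, and each has 3 labelled libraries, so the step concerns 6 of 12. Whether those 3 are separate animals, separate cultures or repeat libraries is not in the labels. The deposited table gives 1 FPKM per gene entry and group (fragments per kilobase of transcript, scaled to library size, so a level already divided by length), so no difference has a replicate check and none was tested.

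For every entry the value at 2 U/ml was set against that at 0.2 U/ml as log2 of (FPKM + 1), a scale that understates differences of low genes. The untreated value was carried beside it, so that an entry unusual at 0.2 U/ml alone is not read as a response to dose. Of 46729 entries, 11852 averaged 1 FPKM or more over the groups. A further 272 of these were listed at 0 in some group and were left out, which leaves 11580. An entry is called higher or lower when its log2 ratio is at least 1 in size, a 2-fold difference on this scale. Such calls describe the deposited values only.

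IFNγ binds a receptor of the chains Ifngr1 and Ifngr2 and acts through the kinases Jak1 and Jak2, which activate STAT proteins. STAT dimers bind a DNA element called GAS, and interferon regulatory factors made in a further round, such as Irf1, bind a second element called ISRE. In macrophages the pathway is known for inducing GTPases that attack the vacuoles of intracellular microbes, antigen presentation, chemokines that call in T cells, and antimicrobial enzymes.

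At 2 U/ml, 175 entries (1.51%) were higher than at 0.2 U/ml and 725 (6.26%) were lower. Counts in the gene lists below are to be read beside these shares, since no call or 1 call in a short list is near them. The 2 directions differed in their relation to untreated cells. Of the 175 higher entries, 141 (1.22% of all) were also at least 1 above untreated, and these form the dose step described first. Their median FPKM was 6.06 untreated, 9.93 at 0.2, 31.1 at 2 and 89.8 at 20 U/ml. Of the 725 lower entries, 713 were above untreated at 0.2 U/ml, 481 of them by at least 1. The 0.2 U/ml value enters both ratios, so picking entries by a lower step favours this by itself. Over all entries the median log2 ratio of 0.2 U/ml to untreated was 0.00. In 367 (3.17%) the value at 0.2 U/ml stood alone, at least 1 above untreated, with 2 U/ml within 0.5 of untreated. At 2 U/ml, 49 (0.423%) were lower by at least 1 than in both of the other groups. The other 309 lay between these classes. All were above untreated at 0.2 U/ml, 97 by at least 1, with a median of 0.88 there and of -0.46 at 2 U/ml against untreated.

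**Figure D1:**
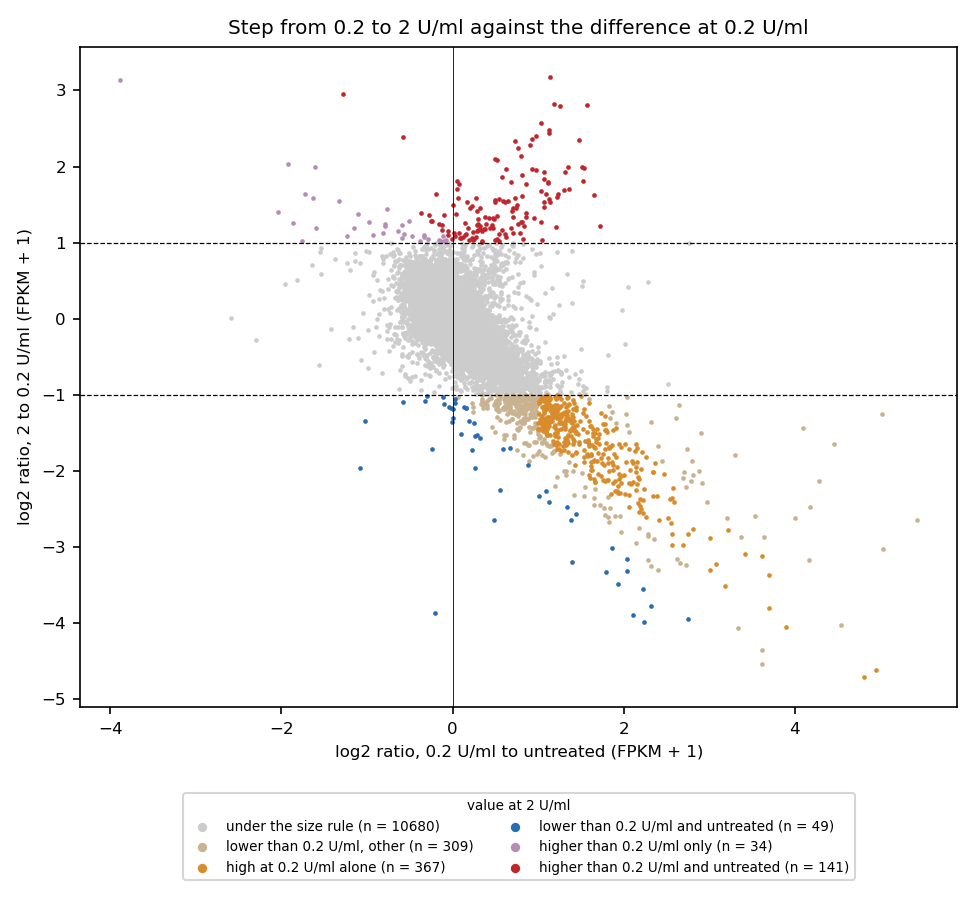
Each point is 1 of 11580 entries, with the log2 ratio of 0.2 U/ml to untreated on the x axis and of 2 to 0.2 U/ml on the y axis (both of FPKM + 1), coloured by the value at 2 U/ml. Dashed lines mark a log2 ratio of 1 and -1. The 0.2 U/ml value enters both axes, which by itself tilts the cloud downward to the right. The 141 red entries lie above the upper line, and most of the 725 entries under the lower line lie to the right of 0.

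Values for the whole table set the frame. The median step over the 11580 entries was 0.02 on the log2 scale and 8803 entries (76.0%) lay within 0.5 of 0. All 15 macrophage marker genes reached 1 FPKM in some group, although Lyz2 was listed at 0 in all groups but 20 U/ml. Of 13 T and NK cell markers 12 were under 1 FPKM in every group, as were 10 of 10 for mast cells and basophils, 8 of 8 erythroid, 9 of 12 stromal and endothelial, 7 of 13 neutrophil, 6 of 9 dendritic cell, 4 of 8 B cell and 2 of 8 osteoclast markers. The summed neutrophil markers ranged from 41.6 FPKM at 0.2 U/ml to 58.1 at 20 U/ml, and the summed T and NK markers from 1.64 to 3.62. The summed dendritic cell markers went from 222 FPKM untreated to 394, 555 and 1315 with dose. Most of that sum was Bst2, itself an interferon-induced gene, but the merged entry of Clec1b and Clec9a was also at 1.27, 1.40, 7.16 and 47.1 FPKM. Fewer cells of a type and less RNA per cell cannot be told apart in bulk RNA, and the part of other cells in the results was not tested.

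The receptor itself differed little over the step. Ifngr1 was at 53.9 FPKM untreated, 41.6 at 0.2, 44.2 at 2 and 44.5 at 20 U/ml, a step of 0.09. Ifngr2 was at 37, 36.9, 37.2 and 41.7 FPKM, a step of 0.01. Jak1 gave 0.29 and Jak2 0.66, the latter from 4.17 to 7.17 FPKM. Among 10 entries for receptor chains, kinases, phosphatases and STATs, 2 were higher, Stat2 among them at 11.5, 19.4, 43.5 and 90.8 FPKM. Stat2 is the partner of Irf9 in type I interferon signalling. Stat3 showed another order, at 16.1, 32.9, 37.8 and 47.0 FPKM, with most of its distance covered by 0.2 U/ml.

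The list of interferon regulatory factors and their partners held 4 higher and 1 lower of 14 entries. Irf1, the factor that carries the signal to secondary genes, was at 34.1 FPKM untreated, 89.1 at 0.2, 293 at 2 and 511 at 20 U/ml. Its step of 1.71 on the log2 scale came after a difference of 1.36 at 0.2 U/ml. Batf2, a partner of Irf1 in activated macrophages, followed the same order at 3.04, 8.44, 27.7 and 89.8 FPKM. Irf7, which drives type I interferon genes, was at 17.2, 31.4, 74.3 and 422 FPKM. Ciita, the coactivator that switches on MHC class II genes, was near the bottom of the range at 0.157 FPKM untreated and 0.353 at 0.2 U/ml, and reached 2.79 at 2 and 7.56 at 20 U/ml. Nlrc5, its counterpart for class I, was at 6.28, 18.1, 34.5 and 64.7 FPKM and missed the rule with a step of 0.89. The lower entry, Tcf4, is taken up with the lower genes. Of 10 feedback inhibitors only Socs1, which blocks JAK kinases, was higher, at 2.06, 4.55, 17.9 and 138 FPKM, a step of 1.77. Socs3 had a step of 0.83 and Usp18, which blocks the type I receptor, of 0.74.

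The GTPases gave the largest steps. All 9 entries for guanylate-binding proteins, which coat microbial vacuoles, were higher, with a median step of 2.33 against 0.02 over all entries. Gbp2b (chromosome 3, 142594847 to 142619179, GRCm38) was at 10.6 FPKM untreated, 25.4 at 0.2, 186 at 2 and 632 at 20 U/ml, a step of 2.82. Gbp2, its neighbour, was at 8.13, 20.8, 150.3 and 343 FPKM, a step of 2.80. Gbp5, also needed for inflammasome activation, was at 2.09, 5.06, 31.1 and 123 FPKM, a step of 2.41. In each of these 3 the 10-fold rise in dose went with a larger log2 difference than the first 0.2 U/ml did. Gbp11 was at the untreated level at 0.2 U/ml, with 0.165 FPKM untreated, 0.169 at 0.2, 2.28 at 2 and 8.89 at 20 U/ml. Several of the family are near-identical copies or merged entries, so reads may be split between them.

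Of 12 entries for immunity-related GTPases, a second family that acts at vacuoles, 8 were higher, with a median step of 1.51. Iigp1 had the largest step of the named genes, 3.18, at 5.53 FPKM untreated, 13.4 at 0.2, 129 at 2 and 415 at 20 U/ml. Tgtp2 (chromosome 11, 49057194 to 49064206) was at 2.55, 9.60, 73.1 and 126 FPKM, a step of 2.80. Irgm1, which guards the cell's own membranes from its relatives, was at 23.2, 51.5, 179 and 366 FPKM, a step of 1.78. The family was not uniform. Gm4951 had most of its difference by 0.2 U/ml, at 2.27, 21.3, 43.2 and 93.8 FPKM, and its step of 0.99 fell just short of the rule. The entry 9930111J21Rik2 was at 12.2, 14.8, 16.3 and 26.9 FPKM, and the merged entry 9930111J21Rik1,Psme2b was lower at 2 than at 0.2 U/ml, at 11.5 against 20.2 FPKM.

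The sequences just before the start of 5 genes with large steps are shown because they hold letters of the GAS or ISRE pattern. The windows of Il18bp, Acod1 and H2-Aa, also among the largest steps, held neither pattern, and those of Iigp1 and Ly6a were not analysed here. GAS was searched as TTCNNNGAA, which reads the same on both strands, and ISRE as GAAANNGAAA on either strand, so that TTTCNNTTTC is the same match on the other strand. The 5 windows are the 250 bases before the RefSeq start (GRCm38.p6), printed 5′ to 3′ on the strand of the gene with matches in capitals. They lie at chr3:142594597-142594846 on the plus strand for Gbp2b, chr11:49064213-49064462 on the minus strand for Tgtp2, chr3:142620413-142620662 on the plus strand for Gbp2, chr3:142496684-142496933 on the plus strand for Gbp5 and chr5:21372423-21372672 on the plus strand for Fgl2.
Gbp2b: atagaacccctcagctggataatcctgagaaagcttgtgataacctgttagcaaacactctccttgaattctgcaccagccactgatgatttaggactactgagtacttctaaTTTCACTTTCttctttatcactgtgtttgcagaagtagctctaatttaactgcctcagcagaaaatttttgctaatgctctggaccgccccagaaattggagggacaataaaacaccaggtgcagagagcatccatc
Tgtp2: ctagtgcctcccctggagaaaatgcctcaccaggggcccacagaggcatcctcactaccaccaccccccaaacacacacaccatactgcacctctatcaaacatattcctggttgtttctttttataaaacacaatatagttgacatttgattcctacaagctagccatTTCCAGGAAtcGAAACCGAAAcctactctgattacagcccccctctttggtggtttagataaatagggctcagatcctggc
Gbp2: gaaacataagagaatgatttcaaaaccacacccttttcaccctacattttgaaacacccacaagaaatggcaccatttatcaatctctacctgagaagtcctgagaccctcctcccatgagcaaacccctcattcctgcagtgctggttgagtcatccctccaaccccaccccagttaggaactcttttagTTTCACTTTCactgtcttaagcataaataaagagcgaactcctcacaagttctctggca
Gbp5: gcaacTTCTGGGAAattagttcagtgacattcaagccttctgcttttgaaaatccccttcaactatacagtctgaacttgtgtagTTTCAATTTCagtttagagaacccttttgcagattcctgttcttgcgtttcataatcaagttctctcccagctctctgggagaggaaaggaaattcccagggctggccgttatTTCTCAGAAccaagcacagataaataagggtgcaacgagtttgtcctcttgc
Fgl2: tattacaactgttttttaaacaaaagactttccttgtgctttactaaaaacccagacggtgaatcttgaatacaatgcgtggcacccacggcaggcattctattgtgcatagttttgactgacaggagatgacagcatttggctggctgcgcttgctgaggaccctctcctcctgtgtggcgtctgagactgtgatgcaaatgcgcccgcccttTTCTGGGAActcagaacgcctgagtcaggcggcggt
Gbp2b and Gbp2 hold the ISRE letters TTTCACTTTC, from 137 to 128 bases before the start in Gbp2b and from 59 to 50 in Gbp2. Tgtp2 holds TTCCAGGAA from 81 to 73 bases before the start and GAAACCGAAA from 70 to 61, next to each other. Gbp5 holds GAS letters at 245 to 237 and at 52 to 44 bases and ISRE letters at 165 to 156. Fgl2 holds GAS letters alone, from 36 to 28 bases. These distances are from the RefSeq start. In the GENCODE annotation, used for gene positions here, Gbp2 starts at 142620602, Gbp5 at 142493978 and Fgl2 at 21372642. By those starts the Gbp2 and Fgl2 windows run into the gene and the Gbp5 window lies inside it. A match is a description of letters and not a site shown to be bound.

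Over the protein-coding single-gene entries higher than in both other groups, 77 of 101 had a promoter in the RefSeq table. GAS letters were in 19.5% of these, ISRE letters in 24.7% and either in 41.6%. The same shares over all 7431 promoters of entries used were 6.0%, 2.76% and 8.38%. For 138 promoters of genes high at 0.2 U/ml alone they were 7.25%, 2.17% and 9.42%, near those of all entries. For 25 promoters of genes at least 1 above untreated at both 0.2 and 2 U/ml, whatever their step, they were 12%, 44% and 52%. None of 12 promoters of genes lower than in both other groups held either pattern, so for them only these letters in this window were not found.

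Of the 141 entries higher than in both other groups, 35 (24.8%) lay in 8 runs of 3 or more neighbours. The runs were drawn on these entries after the values were seen, and each span starts and ends at one. That a span is full is thus partly a product of how it was drawn. The share in runs was not computed for other entries, so 24.8% does not measure clustering. On chromosome 3 from 142493978 to 142638008, all 5 entries used were higher than in both other groups, and all 5 are guanylate-binding proteins, with steps from 1.83 to 2.82. A second run of 3 such entries filled the span from 105077630 to 105346472 on chromosome 5. On chromosome 11 from 48861968 to 49135387, 5 of 7 entries were higher, Irgm1 and Tgtp2 among them. In the MHC on chromosome 17 from 34119541 to 34344645, 8 of 13 entries were higher, Tap1, H2-DMa, H2-Ab1 and H2-Aa among them, with steps from 1.03 to 2.44. All 4 entries of the Ifit run on chromosome 19 from 34550694 to 34613401 were higher, with steps from 1.55 to 1.97. Ifit1, which did not pass the rule, lies outside that span. All 3 Phf11 entries on chromosome 14 from 59276913 to 59365470 were higher too. The 2 other runs were sparser, with 4 of 10 entries on chromosome 18 around Iigp1 and Cd74 and 3 of 10 around Ms4a genes on chromosome 19 from 11047612 to 11531256. Near copies in these runs share sequence, so their values are not independent.

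**Figure D2:**
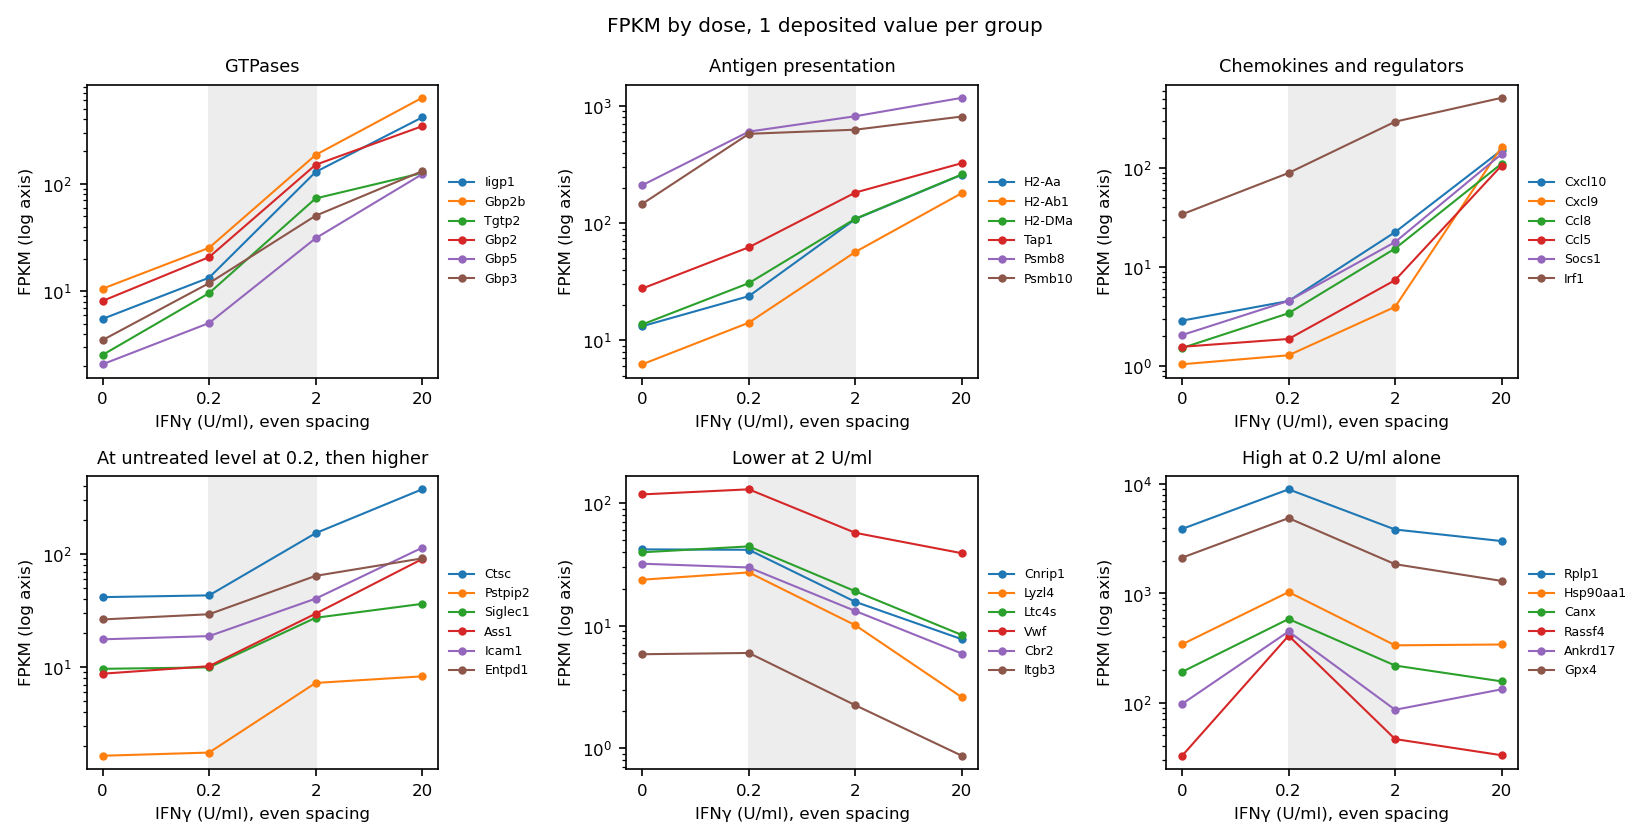
FPKM (log axis) at 0, 0.2, 2 and 20 U/ml IFNγ for 36 genes in 6 panels, 1 deposited value per point, with the step from 0.2 to 2 U/ml shaded. The GTPases are steep within the shaded part, Psmb8 and Psmb10 are nearly flat there after the first dose, the chemokines are steepest after it, and the last panel shows genes that peak at 0.2 U/ml.

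MHC class II, which presents peptides to helper T cells, differed mostly over this step and the next. Of 7 entries 5 were higher, with a median of 0.76 on the log2 scale from untreated to 0.2 U/ml, 1.79 from 0.2 to 2 U/ml and 1.25 from 2 to 20 U/ml. H2-Aa, a class II alpha chain, was at 13.2 FPKM untreated, 23.8 at 0.2, 108 at 2 and 259 at 20 U/ml. H2-Ab1, its beta chain, was at 6.25, 14.2, 56.8 and 181 FPKM. The invariant chain Cd74, merged with Mir5107, was the most abundant, at 65.9, 113, 537 and 1396 FPKM. All 3 kept the order of dose. H2-DMa, which loads the peptides, gave 1.79, while the 2 beta chains of the same loading complex gave 0.82 and 0.84 for H2-DMb1 and H2-DMb2.

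Class I followed another course. Its 13 heavy chain, class I-like and B2m entries had a median step of 0.52, and 1, H2-T24, was higher, at 11.2, 20.5, 51.0 and 92.3 FPKM. H2-K1, a classical heavy chain, was at 543 FPKM untreated, 957 at 0.2, 955 at 2 and 1155 at 20 U/ml, a step of 0.00. B2m, the light chain, was at 2940.0, 2717, 3896 and 6653 FPKM. Among 14 entries for peptide supply and loading the median was 1.15 at 0.2 U/ml and 0.47 over the step. The immunoproteasome and its activator, which cut the peptides, were already high at 0.2 U/ml. Psmb10 was at 146, 579, 628 and 814 FPKM, a step of 0.12. Psmb8 was at 211, 605, 819 and 1176 FPKM, a step of 0.44. Psmb9 was at 143, 413, 585 and 808 FPKM, a step of 0.50.

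Psme1 and Psme2, the activator, had steps of 0.33 and 0.40 after differences of 1.08 and 1.16 at 0.2 U/ml. The peptide transporter behaved differently from the protease. Tap1 was higher, at 27.7, 62.3, 183 and 325 FPKM, and Tap2, at 67.0, 110, 220.2 and 380.0 FPKM, lay just under the threshold with a log2 ratio that rounds to 1.00. Tapbpl, which edits the loaded peptides, was at 7.56, 18.9, 44.8 and 61.2 FPKM, a step of 1.21. The constitutive catalytic subunits, which the immunoproteasome replaces, were also above untreated at 0.2 U/ml, with a median of 0.43. Psmb6 was at 544 FPKM untreated, 1009 at 0.2, 536 at 2 and 544 at 20 U/ml, so it peaked at 0.2 U/ml. The part of such a peak in the immunoproteasome values was not tested. Canx, a chaperone of class I folding, was the lower entry of this list and is one of those, at 191, 583, 218 and 156 FPKM.

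**Figure D3:**
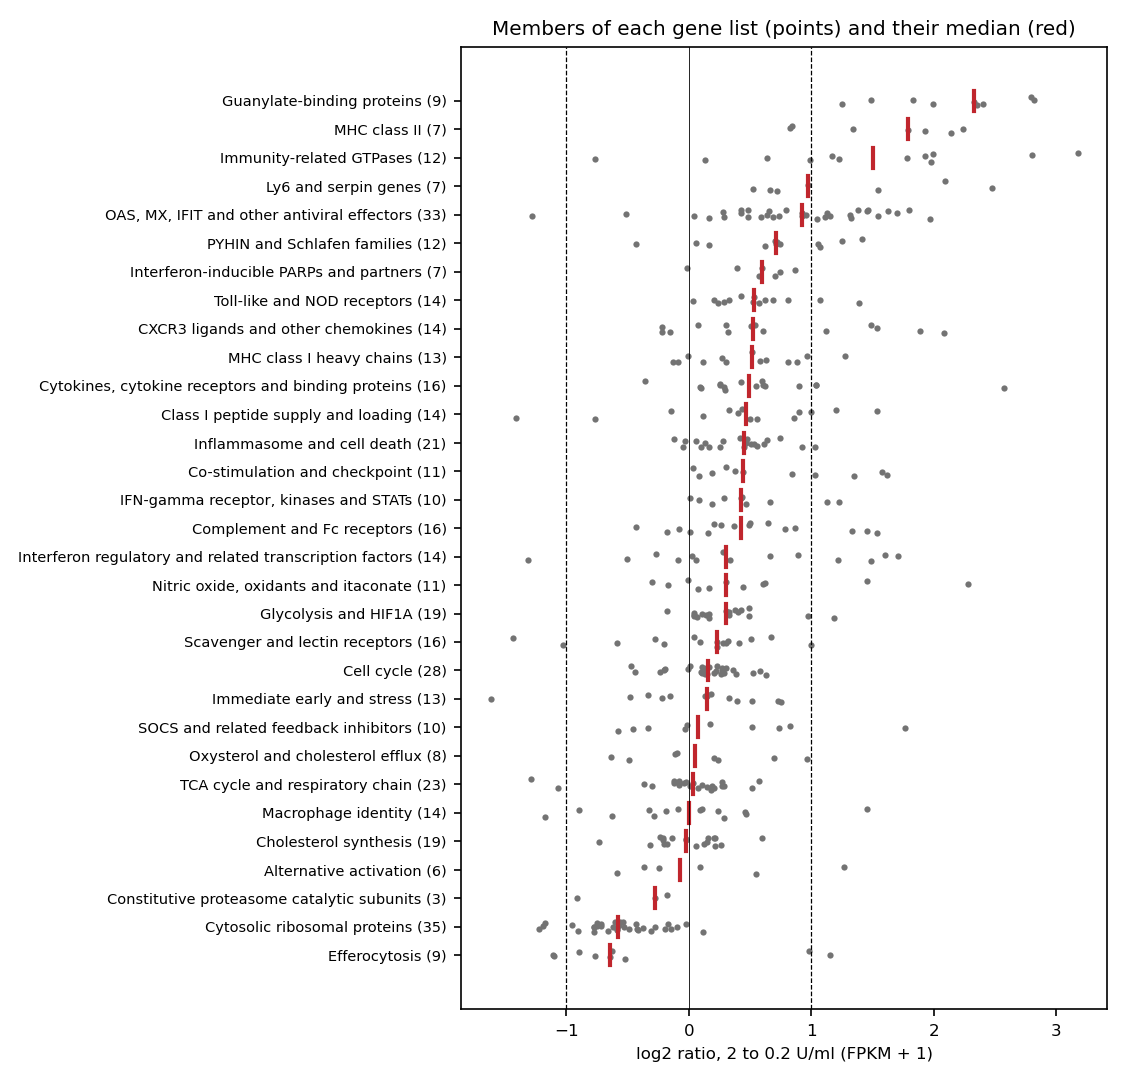
Each grey point is the log2 ratio of 2 to 0.2 U/ml (FPKM + 1) of 1 entry, in rows by gene list with the number of entries in brackets, and red bars mark list medians. Dashed lines mark 1 and -1. Guanylate-binding proteins (2.33), MHC class II (1.79) and immunity-related GTPases (1.51) have the highest medians, and efferocytosis (-0.65) and ribosomal proteins (-0.58) the lowest.

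Of 11 co-stimulation and checkpoint entries 4 were higher. Cd274, the ligand PD-L1 that restrains T cells, was at 6.06 FPKM untreated, 10.8 at 0.2, 34.2 at 2 and 104 at 20 U/ml, a step of 1.58. Cd40, which receives help from T cells, was at 2.17, 3.52, 10.5 and 56.3 FPKM, a step of 1.35. Slamf8 and Slamf7 were the others, with steps of 1.62 and 1.03. Cd86 gave 0.84 and Cd80, a ligand of the same receptors, 0.04 with levels from 3.27 down to 1.62 FPKM.

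The chemokine ligands induced by IFNγ differed more from 2 to 20 U/ml than over the step. Of 14 entries 5 were higher over the step, Cxcl10, Ccl8, Ccl5, Ccl12 and Cxcl9, and the list median was 0.53 for the step and 1.39 from 2 to 20 U/ml. Cxcl10, a ligand of the T cell receptor CXCR3, was at 2.88 FPKM untreated, 4.54 at 0.2, 22.5 at 2 and 151 at 20 U/ml, a step of 2.08. Cxcl9, a ligand of the same receptor, was at 1.04, 1.28, 3.96 and 163 FPKM, a step of 1.12 against 5.04 for the next. Cxcl11, the last of the 3 ligands, was at 0.177, 0.407, 1.05 and 23.8 FPKM. Cxcl10 was thus the highest of the 3 ligands at 2 U/ml, and Cxcl9 at 20 U/ml. Ccl5 was at 1.57, 1.88, 7.36 and 106 FPKM. Ccl3 and Ccl9 went the other way across the doses, at 47.8, 25.9, 22 and 11.7 FPKM and at 181, 133, 114 and 70.1 FPKM, with steps of -0.22 each.

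Among 16 cytokines, receptors and binding proteins, 3 were higher. Il18bp, a secreted trap for interleukin-18, stood out with a step of 2.58, at 2.55 FPKM untreated, 6.24 at 0.2, 42.2 at 2 and 131 at 20 U/ml. Il18 itself was at 13.4, 12.4, 13.4 and 33.5 FPKM. Il12rb1 and Il27 were the others, both with steps of 1.04, from 0.727 to 2.55 FPKM and from 1.57 to 4.30 FPKM. Il27 was the entry of the 3 that was less than 1 above untreated at 2 U/ml, with 1.86 FPKM in untreated cells. Tnf gave 0.09.

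The antiviral effectors, genes best known from type I interferon, held 14 higher entries of 33, with a median step of 0.93 and 1.45 for the next interval. Ifit2, which restrains viral replication, was at 5.47 FPKM untreated, 11.3 at 0.2, 47.0 at 2 and 210.1 at 20 U/ml, a step of 1.97. Mx1, a dynamin-like GTPase against influenza virus, was at 1.54, 3.08, 13.2 and 71.0 FPKM, a step of 1.80. Zbp1, a sensor of left-handed nucleic acid that can start cell death, was at 15.9, 52.1, 163 and 437 FPKM, a step of 1.62. Ifit1 differed from its neighbours on chromosome 19, at 7.76, 35.2, 47.5 and 176 FPKM, with 2.05 by 0.2 U/ml and a step of 0.42. Oas3 and Oas1g, which sense double-stranded RNA, had steps of 0.96 and 0.93. None of 7 entries for interferon-inducible PARPs and their partners passed the rule, with steps from -0.01 to 0.87. Over all entries 1.51% were higher, so no call among 7 is near that share. Their median step was 0.60 against 0.02 over all entries.

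Of 12 PYHIN and Schlafen entries 4 were higher, Mnda, Ifi204, Slfn1 and Pyhin1, with steps from 1.05 to 1.41. Ifi204, a DNA sensor, was at 18.4, 32, 77.3 and 221 FPKM. Aim2, the DNA sensor of the inflammasome, gave 0.70, from 14.7 to 24.6 FPKM. Of 21 inflammasome and cell death entries only Casp12 passed, at 0.111, 0.407, 1.87 and 2.76 FPKM, where the added 1 FPKM weighs much. Casp4, which senses bacterial lipid in the cytosol, was at 18.3, 24, 46.5 and 69.8 FPKM, a step of 0.93, and Casp1 gave 0.64.

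Of 11 entries for nitric oxide, oxidants and itaconate 2 were higher. Acod1, which makes itaconate, was at 2.44 FPKM untreated, 5.45 at 0.2, 30.3 at 2 and 125 at 20 U/ml, a step of 2.28. Ass1, which regenerates arginine, the substrate of nitric oxide synthase, was at 8.73, 10.2, 29.7 and 90.4 FPKM, a step of 1.46. Nos2, the inducible synthase, stayed under 1 FPKM up to 2 U/ml, at 0.0921, 0.137, 0.547 and 4.88 FPKM, with a step of 0.44. That step rests on the added 1 FPKM: with 0.1 or 0.01 added it was 1.45 or 1.92 and passed the rule, against 1.54 for Ass1 with either. Subunits of the phagocyte oxidase had steps from -0.17 for Ncf1 to 0.60 for Cybb, all under the rule.

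Surface receptors for antibody and complement gave 3 higher entries of 16, and these were Fcgr4, Fcgr1 and C1qb. Fcgr4, a receptor for IgG2 antibodies, was at 22.3 FPKM untreated, 48.0 at 0.2, 141 at 2 and 396 at 20 U/ml, a step of 1.53. Fcgr1, the high-affinity receptor, was at 32.3, 53.5, 148 and 348 FPKM, a step of 1.45. The inhibitory receptor Fcgr2b was at 70.6, 53.1, 46.7 and 29.9 FPKM, a step of -0.18. The 3 chains of C1q, which are made together, did not move alike. C1qb gave 1.33, C1qc 0.49 and C1qa 0.01, the last at 50.1, 112, 112 and 167 FPKM. Of 14 Toll-like and NOD receptor entries 2 were higher, Tlr8 and Nod1, the former at 6.75, 5.0, 14.7 and 10.5 FPKM.

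Among Ly6 and serpin genes 3 of 7 entries were higher. Ly6a, a surface antigen also called Sca-1, was at 18.1 FPKM untreated, 40.8 at 0.2, 231 at 2 and 1678 at 20 U/ml, a step of 2.48. Serpina3f and Serpina3g, protease inhibitors, had steps of 2.09 and 1.55, the latter at 0.847, 1.88, 7.44 and 149.7 FPKM. Fgl2, a secreted immune regulator and prothrombinase, was at 4.81, 10.0, 55.7 and 167 FPKM, a step of 2.36. Hk3, a hexokinase of myeloid cells, was the only higher entry of 19 for glycolysis, at 98.5, 128, 292 and 473 FPKM. Tgm2, a transglutaminase listed with alternative activation, was at 29.6, 52.2, 127 and 199 FPKM. Neither the 19 cholesterol synthesis entries nor the 28 cell cycle entries held a called member, with median steps of -0.02 and 0.16. From 2 to 20 U/ml those medians were -0.59 and -0.31. Over all entries 1.51% were higher and 6.26% lower over the step. In lists of 19 or 28 entries, no call or 1 call is thus near those shares.

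**Figure D4:**
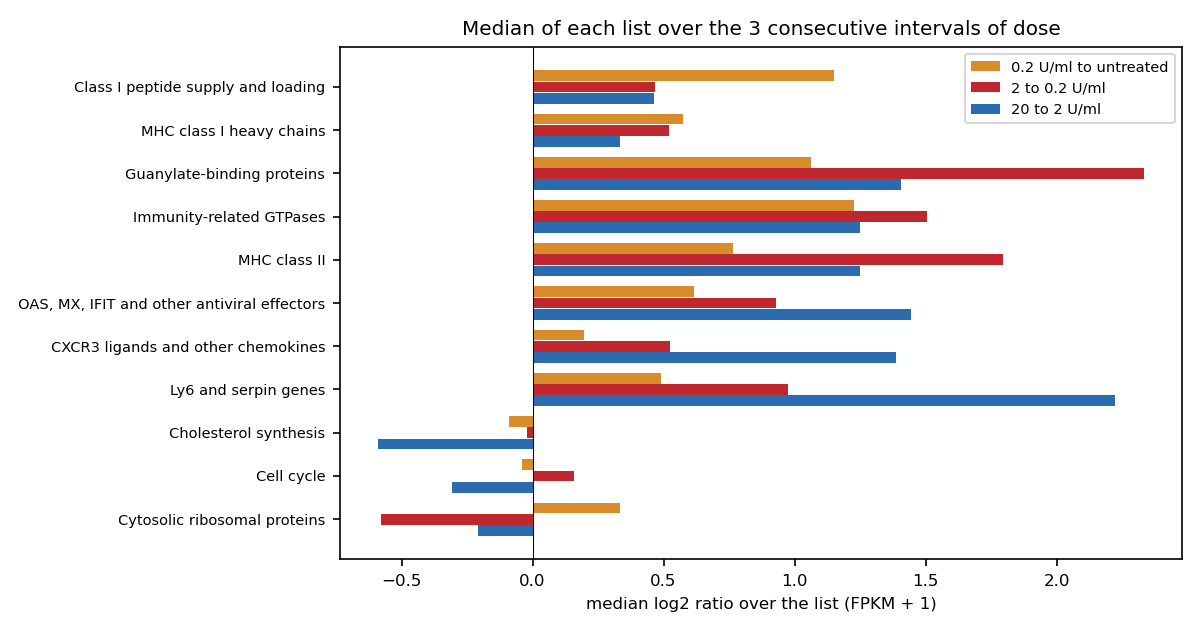
Bars give the median log2 ratio (FPKM + 1) over each of 11 gene lists for untreated to 0.2 U/ml (top bar of each list, orange), 0.2 to 2 U/ml (middle, red) and 2 to 20 U/ml (bottom, blue). Class I peptide supply is largest in the first interval (1.15), guanylate-binding proteins (2.33) and MHC class II (1.79) in the middle one, and chemokines (1.39) and Ly6 and serpin genes (2.22) in the last. Adjacent bars share a group.

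How much of a gene's level at 2 U/ml was present at 0.2 U/ml was described over the 289 entries at least 1 above untreated at 2 U/ml. The median share of the log2 difference already there at 0.2 U/ml was 37.6%, with quartiles of 24.2% and 48.1%. Of the 289, 141 passed the rule over the step, 68 had passed it at 0.2 U/ml and 32 did both. A later step followed in many, since 146 were again at least 1 higher at 20 than at 2 U/ml, 88 of them among the 141.

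A group of 37 entries was less than 0.25 above untreated, or under it, at 0.2 U/ml and passed the rule over the step. With 1 FPKM added, this takes in low entries that did differ at 0.2 U/ml, such as Ciita at 0.157 FPKM untreated and 0.353 at 0.2 U/ml. The genes named here were chosen after their values were seen, and a flat start followed by a high value at 2 U/ml is how they were picked. Ctsc, the protease that activates granule serine proteases, was at 41.6 FPKM untreated, 43.1 at 0.2, 153 at 2 and 375 at 20 U/ml, a step of 1.81. Icam1, an adhesion molecule, was at 17.6, 18.8, 40.4 and 114 FPKM, and Itgal, a chain of its receptor LFA-1, at 9.30, 11.1, 25.7 and 49.2 FPKM. Upp1, a uridine phosphorylase, was at 0.953, 0.980, 3.32 and 28.9 FPKM. Siglec1, the sialic acid receptor CD169, was at 9.65, 9.93, 27.3 and 36.3 FPKM, with less than 0.5 added at the next dose. In 25 of the 141 higher entries the difference from 2 to 20 U/ml was under 0.5. Pstpip2, an adaptor that restrains inflammasome activity, was one, at 1.64, 1.75, 7.23 and 8.27 FPKM, and Tnfrsf14, the receptor HVEM, another, at 11.1, 15.7, 37.3 and 37.6 FPKM.

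The opposite course, at least 1 above untreated by 0.2 U/ml and within 0.5 over the step, was shown by 14 entries. Aif1, an actin-binding protein of macrophages, was at 56.3 FPKM untreated, 279 at 0.2, 392 at 2 and 580.2 at 20 U/ml. Nmi, a partner of STAT proteins, was at 22.3, 54.3, 61.5 and 106 FPKM. The other members named so far are Ifit1, Psmb8, Psmb10, Psme1, Psme2 and C1qa.

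Entries at least 1 lower at 2 U/ml than in both other groups were few. Of the 49 entries lower than in both other groups, 17 were at least 1 above untreated at 0.2 U/ml, 25 were within 0.5 of it and 7 were neither. Among the 25 were 11 single protein-coding genes. Entries with only genes under 200 nt made up 11 of the 17 and 4 of the 25. The named-gene rule ranks by step and took several entries high at 0.2 U/ml, such as Crebbp, a histone acetyltransferase, at 53.6, 224, 24.1 and 42.4 FPKM. Dkk2, a secreted Wnt regulator, was at 4.49, 11, 1.27 and 0.229 FPKM and Sox4, a transcription factor, at 6.34, 10.0, 2.36 and 1.31 FPKM, both lowest at 20 U/ml. The 11 level at 0.2 U/ml were singled out after the values were seen.

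Cnrip1, a protein that binds the cannabinoid receptor, was at 41.9 FPKM untreated, 41.6 at 0.2, 15.6 at 2 and 7.75 at 20 U/ml, a log2 ratio of -1.36. Ltc4s, which makes leukotriene C4, was at 39.7, 44.3, 19.1 and 8.39 FPKM, a ratio of -1.18. Vwf, the platelet adhesion factor of endothelium, was at 118, 130, 57.2 and 39 FPKM, a ratio of -1.17. Other endothelial markers were low, with Cdh5 between 0.0193 and 0.129 FPKM, Kdr at 1.45, 1.64, 1.75 and 2.01 FPKM and Pecam1 at 0.691, 3.41, 0.720 and 0.941 FPKM, and their part in the Vwf values was not tested. Itgb3, the beta chain of the vitronectin receptor, was at 5.84, 5.98, 2.24 and 0.867 FPKM, a ratio of -1.11. In 10 of the 11 the level at 20 U/ml was lower still. Tcf4, a helix-loop-helix factor, was the exception, at 53.9, 54.1, 21.2 and 44.5 FPKM. The others were Lyzl4, Cbr2, Shisa9, Tecpr1, Gm42517 and Ednrb, with ratios from -1.35 to -1.02.

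Of 9 entries for efferocytosis, the uptake of dying cells, 2 were lower and 1 higher, with a median of -0.65. Over all entries 6.26% were lower and 1.51% higher, and counts this small say little about a list. The list median was 0.23 at 0.2 U/ml and -0.42 at 2 U/ml against untreated. Itgb3 and Itgav were the lower ones, and they encode the chains of 1 receptor. Itgav was at 75, 126, 58.5 and 78.6 FPKM, so it was high at 0.2 U/ml. Gas6, a bridge to dying cells, was lower at each dose, at 171, 123, 72.2 and 19.3 FPKM with a ratio of -0.76, while its receptor Axl was higher, at 5.76, 7.62, 18.1 and 35.4 FPKM. Stab1 and Clec4d were the lower ones of 16 scavenger and lectin receptors. Stab1 was at 684, 1173, 433 and 229 FPKM, highest at 0.2 U/ml, and Clec4d at 777, 814, 399 and 238 FPKM, near untreated at that dose. Maf, a factor of resident macrophages, was at 201, 303, 134 and 118 FPKM, a ratio of -1.17.

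The 367 entries high at 0.2 U/ml alone had a median of 5.36 FPKM untreated, 21.9 at 0.2, 5.20 at 2 and 5.04 at 20 U/ml, and 266 of them were within 0.5 of untreated at 20 U/ml. They were of mixed kinds. Protein-coding entries made up 56.4% against 85.2% of all entries, unclassified transcripts (TEC in the annotation) 11.2% against 1.53%, and processed pseudogenes 6.27% against 1.91%. Abundant housekeeping genes were among the 187 single protein-coding ones. Rplp1, a ribosomal protein, was at 3903 FPKM untreated, 9001 at 0.2, 3855 at 2 and 3021 at 20 U/ml. Hsp90aa1, a chaperone, was at 342, 1029.7, 335 and 341 FPKM. Rassf4 was at 32.6, 410.1, 46.3 and 32.9 FPKM.

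The 35 ribosomal protein entries were also higher at 0.2 U/ml as a list, with a median of 0.33 there and -0.58 over the step. Of the 35, 3 were lower, Rplp1, Fau and the entry of Rplp2, where 6.26% of all entries were. Of 23 entries for the TCA cycle and respiratory chain 2 were lower. Ndufv1 was one, at 109, 240.1, 97.7 and 101 FPKM. That list as a whole had no such peak, with medians of -0.04 at 0.2 U/ml and 0.04 over the step. The 367 entries were shorter than all entries, with a median of 2384 against 3103 nt and 8.72% against 1.73% under 200 nt, and had a GC content of 47.7% against 49.3%. The 187 protein-coding ones were longer, at 3841 against 3328 nt over 9248 such entries, with 48.9% against 49.4% GC. With 1 value per group, a technical difference of the 0.2 U/ml libraries and a response to the lowest dose cannot be told apart. The reverse also occurred. Of the 34 entries higher than at 0.2 U/ml but not than in untreated cells, 17 had only genes under 200 nt and 13 were at least 1 under untreated at 0.2 U/ml. Prss36 was at 4.58, 0.798, 4.40 and 4.55 FPKM.

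The threshold has no gap around it. Just inside and just outside on the higher side were Gm37421 at 1.01 and Tap2 at 1.00, and on the lower side E230032D23Rik and Ccdc85b, both at -1.0.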

How the data were processed

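RNA-seq reads of 12 libraries were processed by the authors with TopHat2 2.1.1, Cufflinks 2.1.1 and Cuffdiff 2.1.1 on the build mm10 (versions per the submitters' processing notes). Expression values as deposited are FPKM, 1 per entry and group, per the file headers. The untreated column carries no unit in its header and was read as FPKM. How the 3 libraries of a group were turned into 1 value is not stated in the labels or headers. FPKM keeps no depth, so the depth is unknown. A deposited comparison of untreated with treated cells names no dose and was not used.

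Ratios were differences of log2(FPKM + 1) over entries with a mean of at least 1 FPKM and no 0, computed with Python 3.11.15, pandas 2.3.3 and numpy 2.4.6, and checked on simulated data. With 1 value per group no test was made. An exact 0 can be a failed estimate. Of the 11580 entries, 695 merge overlapping genes whose reads cannot be told apart. Positions, lengths and biotypes came from GENCODE M21 on GRCm38 and matched 96.9% of entries.

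Named genes were single-gene entries of at least 2 FPKM in the higher group and not under 200 nt. The rule took the 15 largest steps also above untreated, the 10 smallest also below untreated, the 5 smallest of all, the 5 largest not above untreated, from each of 39 gene lists up to 4 members and 15 pathway genes. Other list members are named where a group is described, after their values were seen. Printed promoters are those of up to 5 such genes with the largest step that hold a GAS or ISRE match. Many genes that the rule took are left unreported, among them the 5 smallest of all. Most of the 10 smallest also below untreated and of the 5 largest not above untreated are left out too. Of the 15 largest, Gbp3, H2-Ea-ps and Gm12250 are not described. Members, lists and rules were chosen with earlier results of these data known. The classes of entries lower than both groups, the flat-start group, the runs of neighbours within 500000 bases and the protein-coding alternative were added after the values were seen. Alternatives were other pseudocounts, filters and scalings.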

Additional observations from a re-analysis of the deposited data

How the results depend on the processing

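No paired analysis was possible because the table holds 1 value per group. For the same reason no library could be left out. Of 11580 entries, 175 were higher and 725 lower at 2 than at 0.2 U/ml. The higher entries numbered 275 with a pseudocount of 0.1, 288 with 0.01 and 110 over single-gene protein-coding entries, an alternative added after the values were seen. The lower entries numbered 363 over the protein-coding entries. Entries high at 0.2 U/ml alone, 367 at first, numbered 220 with a mean of at least 5 FPKM and 187 over the protein-coding entries. The 49 entries lower than both groups became 103 and 120 with pseudocounts of 0.1 and 0.01, 84 with entries at 0 included, 31 without entries under 200 nt and 16 over the protein-coding entries. The 141 entries higher than both groups ranged from 101 (protein-coding) to 203 (pseudocount 0.01). A smaller pseudocount can only enlarge such a ratio, so all 141 were bound to stay called with 0.1 or 0.01. Of the 141, 140 stayed called with median-ratio scaling, 139 with quantile normalization and 138 with upper-quartile scaling. Quantile and upper-quartile scaling moved the median step of all entries to 0.09 and 0.06. No value changed sign past the rule. Of the values for 165 named genes, 45 over 20 genes crossed it, and of those for lists, 6 over 2 lists did. Fewer entries were tested under the stricter filters, and the cause of the other differences was not tested.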

Other observations

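Some further members of the group that was no more than 0.25 above untreated at 0.2 U/ml and at least 1 higher at 2 U/ml belong to no gene list. They were chosen after their values were seen. Bst1, a surface enzyme that handles NAD, was at 16.2 FPKM untreated, 18.1 at 0.2, 44.7 at 2 and 153 at 20 U/ml. Entpd1, the ectonucleotidase CD39, was at 26.4, 29.4, 64.2 and 91.7 FPKM. Ms4a6b was at 17.3, 16.1, 43.2 and 80.7 FPKM, and Sdc3, a heparan sulphate proteoglycan, at 51.0, 50.8, 106 and 162 FPKM. Atm, the kinase that senses DNA breaks, was at 3.65, 2.92, 8.51 and 7.54 FPKM, with its highest value at 2 U/ml. The long noncoding RNA Gm26778 was likewise highest at 2 U/ml, at 17.8, 16.2, 39.5 and 23.3 FPKM.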
